A study of Homo sapiens with 6 samples.

Results

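Cells rejoin broken DNA ends by several routes, and the 10 genes described here encode the core of these routes: XRCC4, XRCC5, XRCC6, LIG4, PRKDC, NHEJ1, DCLRE1C, POLQ, TP53BP1 and RIF1. They were taken by symbol from a table of 47577 loci, in which each of the 10 had a row of its own, and 9 of them were expressed highly enough to be tested. The data are RNA-seq of polyA RNA from OVCAR3, an established cell line of high-grade serous ovarian adenocarcinoma. In 3 libraries the cells had received DMSO, the solvent, for 6 h, and in the other 3 they had received 200 nM THZ531, a covalent inhibitor of the transcriptional kinases CDK12 and CDK13, for 6 h. All 6 libraries share the cell line, no engineered allele is labelled, and the libraries of a group are described as biological repeats, so that the values speak for 1 line at 1 dose and 1 time point. The submitters' treatment protocol names the related compound THZ1 at that dose, whereas the titles and the treatment of each sample name THZ531, which was used here.

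In classical non-homologous end joining, the Ku heterodimer (XRCC6, also called Ku70, and XRCC5, also called Ku80) binds the broken end and recruits the kinase DNA-PKcs (PRKDC), which activates the nuclease Artemis (DCLRE1C). The ends are then sealed by DNA ligase IV (LIG4) with its scaffold XRCC4 and the bridging factor XLF (NHEJ1). 53BP1 (TP53BP1) and its effector RIF1 hold back resection of the ends and thereby favour this route over homologous recombination, and DNA polymerase theta (POLQ) joins resected ends through short homologies. The balance between these routes matters in ovarian carcinoma, where defects of homologous recombination underlie the response to PARP inhibitors.

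The values are normalized reads, that is, reads counted on a locus and divided by the size factor of the library. Reads on genes numbered 60146046 to 70986130 per library in DMSO and 53054048 to 57953296 in THZ531. The sum of the normalized values was higher in THZ531 than in DMSO, so that scaling every library to the same total shifts all fold changes by -0.24 on the log2 scale, and scaling to RPL34, a ribosomal protein gene, shifts them by -0.49. The labelled cell type was checked with 6 epithelial and ovarian markers, and each of the 6 was detected. EPCAM, for example, was at 21222 ± 542 in DMSO and at 26194 ± 406 in THZ531 (SD, n = 3), whereas PAX8, a transcription factor of the Mullerian lineage, fell from 11272 ± 545 to 1241 ± 121 (SD, n = 3). Of 6 markers of leukocytes, fibroblasts and endothelium, CD3E was listed at 0 in every library, and the summed level of the 6 ranged from 1187 to 1276 in DMSO and from 2341 to 2625 in THZ531, most of it COL1A1 (995 ± 47.5 and 2190.4 ± 141.3; SD, n = 3). Their part in the results given here was not tested.

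Upon treatment with THZ531, XRCC4 fell to 48.8% and POLQ to 53.5% of DMSO, LIG4 was lower by 1.49-fold, just under the threshold of 1.5, and RIF1 rose to 176%. The genes of Ku, DNA-PKcs, Artemis and 53BP1 differed from DMSO by at most 1.23-fold, and NHEJ1 was listed at 0 in all 6 libraries. A gene was called decreased or increased when it changed at least 1.5-fold with an unadjusted p of 0.05 or less in limma, fitted on log2(value + 1) across all 17568 loci tested. By this rule 2 of the 9 tested genes decreased, where 23.9% of all loci tested did, and 1 of the 9 increased, where 15.7% of all loci did, so these counts lie close to the background. At any fold, 7 of the 9 had a Benjamini-Hochberg adjusted p of 0.05 or less in limma, compared with 68.6% of all loci. The median log2 fold change was 0.12 over the 9 genes and -0.01 over all loci. In 8 of the 9 the DMSO and THZ531 libraries did not overlap, which held for 71.7% of all loci. Since these are bulk libraries, fewer cells that express a gene and less of its RNA per cell cannot be told apart.

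**Figure D1:**
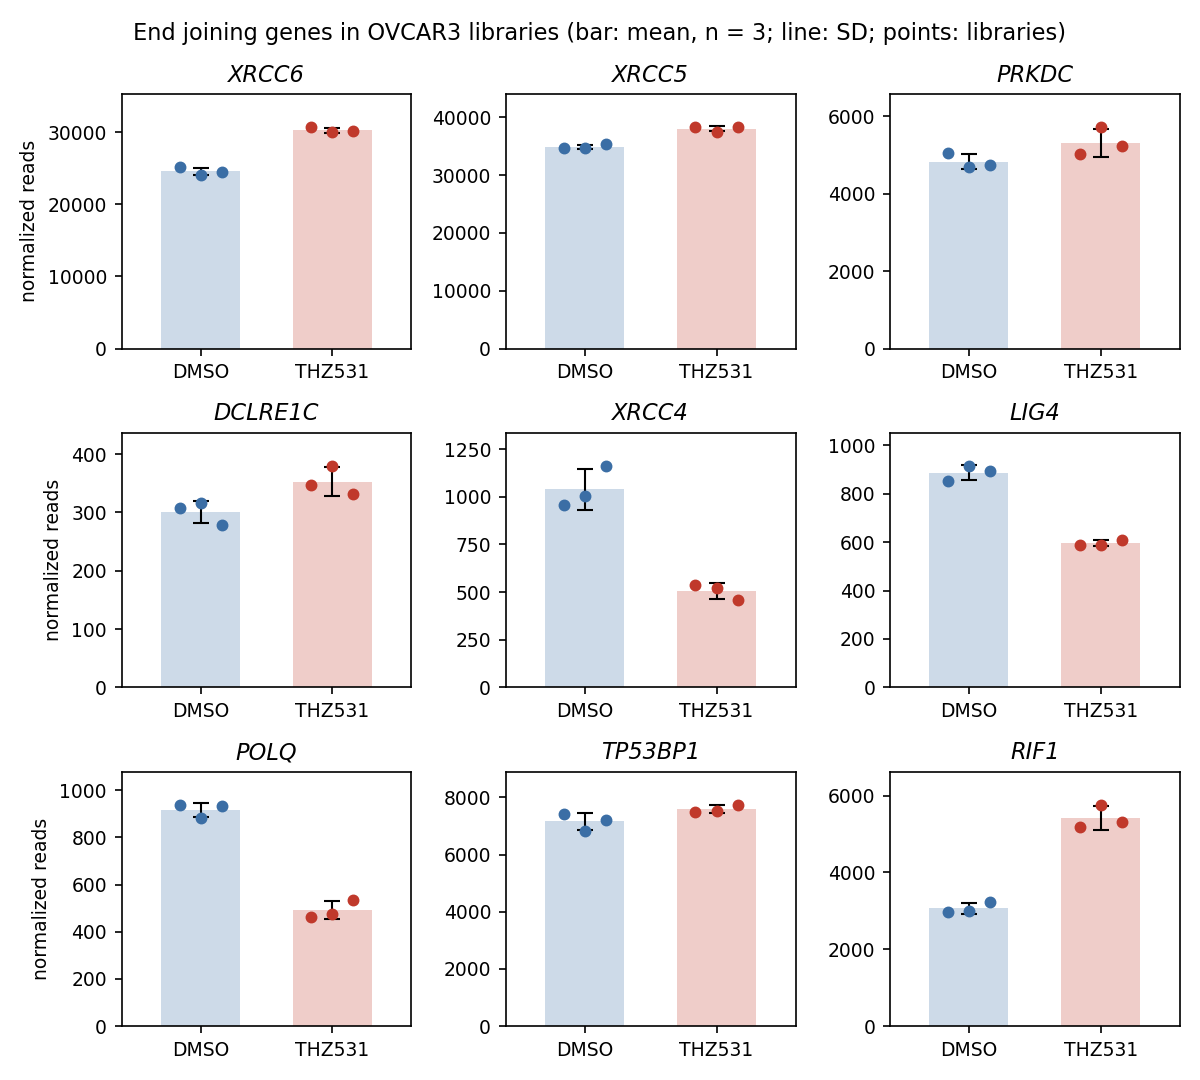
Normalized reads (y axis, linear and starting at 0, a separate scale for each gene) of the 9 end joining genes with reads in the DMSO and THZ531 libraries; bars are means, lines the SD over 3 libraries, points single libraries. The THZ531 points of XRCC4, LIG4 and POLQ lie below all DMSO points, those of RIF1 lie above them, and those of PRKDC overlap with DMSO.

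Ku was the most abundant component. XRCC6 (chromosome 22, 41621269 to 41664048 in hg38) was at 25187, 24159.8 and 24471 normalized reads in the DMSO libraries and at 30730.0, 30048 and 30163 in the THZ531 libraries. XRCC5 (chromosome 2, 216109348 to 216206293) was at 34689, 34752 and 35334 in DMSO and at 38264, 37486 and 38286 in THZ531. For both genes every THZ531 library was above every DMSO library, by a margin much smaller than the threshold. The log2 fold change was 0.30 for XRCC6 (95% confidence interval from 0.23 to 0.37, limma adjusted p = 4.3e-07) and 0.12 for XRCC5 (interval from 0.06 to 0.19, limma adjusted p = 0.0021). The sign of both depends on the scaling: XRCC5 was at -0.12 with equal totals, XRCC6 stayed above 0 at 0.06, and with RPL34 as the reference XRCC5 was at -0.37 and XRCC6 at -0.19. The ratio of XRCC6 to XRCC5, which no scaling of whole libraries can alter, was 0.705 ± 0.0186 in DMSO and 0.798 ± 0.00841 in THZ531 (SD, n = 3). The libraries did not overlap (two-sided exact permutation test, p = 0.1, the smallest possible here, and 0.125 after adjustment over 5 pairs).

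DNA-PKcs and Artemis, the kinase and the nuclease that act on Ku-bound ends, were not regulated. PRKDC (chromosome 8, 47773108 to 47960183) was at 5056, 4682 and 4749 normalized reads in DMSO and at 5020.3, 5722 and 5229 in THZ531. The groups overlapped, because the lowest THZ531 library was below the highest DMSO library. DCLRE1C (chromosome 10, 14882889 to 14954432) was at 307, 316 and 279 in DMSO and at 346, 379.7 and 331 in THZ531, without overlap. The log2 fold change was 0.14 for PRKDC (interval from 0.03 to 0.25, limma adjusted p = 0.023) and 0.23 for DCLRE1C (interval from -0.01 to 0.46, limma adjusted p = 0.085). Both changed sign with equal totals (-0.10 and -0.016) and with RPL34 as the reference (-0.35 and -0.27). The deposited DCLRE1C locus overlaps SUV39H2, a histone methyltransferase gene, which had a log2 fold change of -0.33 (limma adjusted p = 0.032). Reads in the shared stretch can be assigned to one gene or the other only by strand. The strand setting of the counting is not given in the sources used here. The same limit holds for TP53BP1, which partly overlaps TUBGCP4, and for RIF1, which partly overlaps NEB. Mean normalized reads in DMSO and THZ531 were 2939 and 3075 for TUBGCP4 and 19.9 and 15.8 for NEB. Neither TUBGCP4 nor NEB was regulated.

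The ligation step contained the greatest decrease among the 9 tested genes. XRCC4 (chromosome 5, 83077547 to 83353760) was at 954, 1001.2 and 1161 normalized reads in the DMSO libraries and at 539, 521 and 461 in the THZ531 libraries. All 3 THZ531 libraries were therefore below all 3 DMSO libraries, and the gap was wider than the spread within either group. The means were 1039 ± 108 in DMSO and 507 ± 40.9 in THZ531 (SD, n = 3), which is 48.8% of DMSO. XRCC4 fell by 1.03 on the log2 scale (SE 0.0912, interval from -1.23 to -0.84, limma adjusted p = 5.0e-08), and 15.2% of all loci had a fold change as low or lower. XRCC4 remained decreased under each of the 19 alternative settings, with log2 fold changes between -1.52 and -0.95.

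LIG4, the catalytic partner of XRCC4 (chromosome 13, 108207442 to 108218369), was at 853, 915 and 894 normalized reads in DMSO and at 587, 589.9 and 611 in THZ531. The groups were well separated, and both were tight. The means were 887 ± 31.7 and 596 ± 13.1 (SD, n = 3), and the log2 fold change was -0.57 (SE 0.0743, interval from -0.73 to -0.42, limma adjusted p = 4.1e-06). This is a 1.49-fold difference, just short of the threshold, so LIG4 was not counted as decreased. It passed the threshold with edgeR (-0.60), with upper-quartile scaling (-0.59), with equal totals (-0.82) and with RPL34 (-1.07), and also without DMSO replicate 1 (-0.60) or without THZ531 replicate 3 (-0.59). The ratio of XRCC4 to LIG4 was 1.12, 1.09 and 1.30 in the DMSO libraries and 0.918, 0.882 and 0.754 in the THZ531 libraries. The ratio was lower in every THZ531 library than in any DMSO library, with a log2 difference of -0.46 (two-sided exact permutation test, p = 0.1, the smallest that 3 libraries against 3 allow; 0.125 after adjustment over 5 pairs).

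NHEJ1, which encodes XLF (chromosome 2, 219069357 to 219160815), was listed at 0 in all 6 libraries and was not tested. In GENCODE v44 a readthrough gene on the same strand, ENSG00000280537, overlaps NHEJ1. The reads were counted on FAST DB loci, and whether that annotation holds the same overlap was not examined. Of 1100 coding genes with a same-strand readthrough gene, 8.55% were listed at 0 in every library, and of the 17401 without one, 15.1%. The part of this overlap in the value of NHEJ1 was not tested. BARD1, the partner of BRCA1, was also listed at 0 throughout. The value of NHEJ1 is therefore given as listed, and no statement is made about its expression.

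POLQ, the polymerase of alternative end joining (chromosome 3, 121431427 to 121546641), was at 938, 882 and 931 normalized reads in DMSO and at 462, 476 and 534 in THZ531. No THZ531 library reached the lowest DMSO library. The means were 917 ± 30.2 and 491 ± 37.8 (SD, n = 3), or 53.5% of DMSO, and POLQ fell by 0.90 on the log2 scale (SE 0.0825, interval from -1.08 to -0.73, limma adjusted p = 7.4e-08). It was decreased under all alternatives except the 2-fold threshold, with log2 fold changes between -1.40 and -0.86. The ratio of POLQ to LIG4 was 1.04 ± 0.0678 in DMSO and 0.823 ± 0.0449 in THZ531 (SD, n = 3), again without overlap (two-sided exact permutation test, p = 0.1; adjusted p = 0.125). The RNAs of the polymerase and of the ligase were both lower after THZ531, and their ratio fell below all DMSO values in each THZ531 library.

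53BP1 and RIF1 act in sequence on the same chromatin, and their confidence intervals did not overlap. TP53BP1 (chromosome 15, 43403061 to 43510640) was at 7418, 6832 and 7223 normalized reads in DMSO and at 7481, 7542 and 7739.6 in THZ531. The 2 groups lay next to each other and did not overlap, but the log2 fold change was only 0.08 (interval from -0.00 to 0.17, limma adjusted p = 0.075), and it was -0.16 with equal totals and -0.41 with RPL34. RIF1 (chromosome 2, 151409883 to 151508011) was at 2978, 3001 and 3231 in DMSO and at 5176, 5757 and 5314 in THZ531. Every THZ531 library of RIF1 was far above every DMSO library. The means were 3070.1 ± 140.2 and 5416 ± 304 (SD, n = 3), or 176% of DMSO, and the log2 fold change was 0.82 (SE 0.0504, interval from 0.71 to 0.93, limma adjusted p = 7.3e-10). RIF1 remained above 0 under every scaling, but the call of an increase was lost with equal totals (0.58, 1.5-fold not reached) and with RPL34 (0.33). The ratio of RIF1 to TP53BP1, which is free of the scaling, was 0.401, 0.439 and 0.447 in DMSO and 0.692, 0.763 and 0.687 in THZ531, a log2 difference of 0.73 with no overlap (two-sided exact permutation test, p = 0.1; adjusted p = 0.125). The remaining ratio, DCLRE1C to PRKDC, was 0.0624 ± 0.00461 in DMSO and 0.0662 ± 0.00284 in THZ531 (SD, n = 3), and here the libraries overlapped (p = 0.3 in the same exact test, adjusted p = 0.3).

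**Figure D2:**
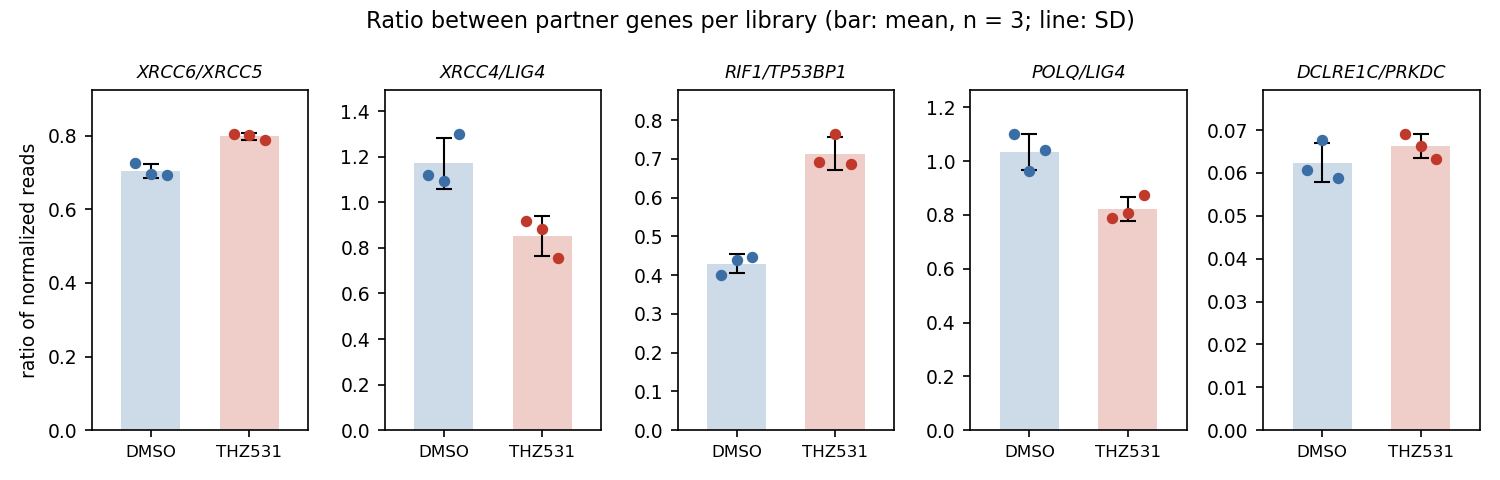
Ratio of normalized reads between partner genes (y axis, linear and starting at 0) in DMSO and THZ531; bars are means, lines the SD over 3 libraries, points single libraries. XRCC6/XRCC5 and RIF1/TP53BP1 lie higher in all 3 THZ531 libraries, XRCC4/LIG4 and POLQ/LIG4 lie lower, and DCLRE1C/PRKDC overlaps.

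**Figure D3:**
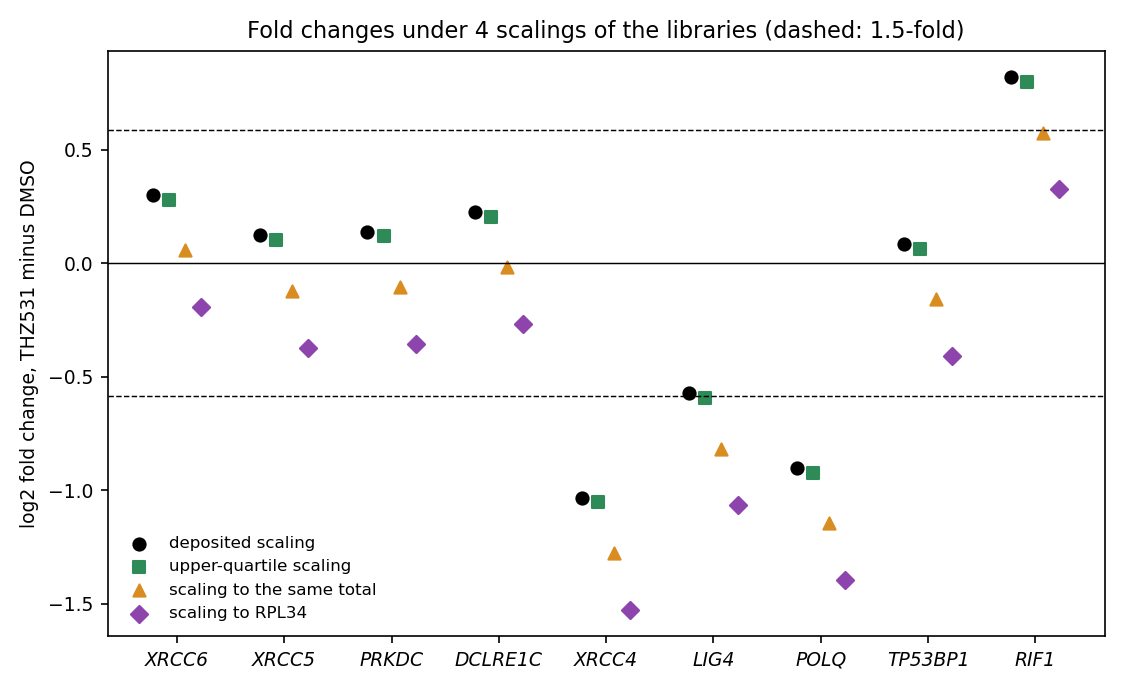
Log2 fold change (y axis, THZ531 minus DMSO) of the 9 tested genes under the deposited scaling and 3 others, with dashed lines at 1.5-fold. XRCC4, POLQ and LIG4 are below 0 and RIF1 is above 0 under each of the 4 scalings, whereas the other 5 genes lie above 0 with the deposited scaling and below 0 with RPL34.

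The members differ widely in level. Per kilobase of the MANE transcript, XRCC6 was at 11596 ± 248 normalized reads and XRCC5 at 10336 ± 105 in DMSO (SD, n = 3), and all other members were far lower. TP53BP1 (690.3 ± 28.8) and XRCC4 (648 ± 67.6) followed with overlapping libraries, then PRKDC (359 ± 14.8), LIG4 (223 ± 7.97) and RIF1 (209 ± 9.56), of which the last 2 overlapped, then POLQ (105 ± 3.44) and DCLRE1C (50.5 ± 3.25; SD, n = 3 for each). After THZ531 the order changed on this per-kilobase scale. RIF1 stood at 369 ± 20.7 and XRCC4 at 316 ± 25.6, so that RIF1 had passed XRCC4, with no overlap between their libraries. By the MANE length POLQ (56.0 ± 4.32) was now near DCLRE1C (59.1 ± 4.17), and their libraries overlapped. This nearness depends on the length used. All GENCODE exons together cover 15.3 kb in DCLRE1C, against 5.96 kb of its MANE transcript, but 9.185 kb against 8.757 kb in POLQ. XRCC4, POLQ and LIG4 had DMSO means between 500 and 2000 normalized reads without the correction for length. Of all named loci in that range 24.7% decreased, compared with 4.21% of those above 10000, where both Ku genes lie.

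Gene structure was read from GENCODE v44 on hg38, because the study followed premature ends of transcripts at polyadenylation signals within introns. XRCC4 has the longest locus of the 10, at 276 kb, and its introns hold 400 copies of AATAAA, the canonical signal, on the sense strand, or 1.46 per kilobase. Over 12917 expressed genes with introns the median was 0.697 per kilobase, and 88.4% had at least 1 copy. LIG4, at 10.9 kb the shortest locus, has 4 copies (0.972 per kilobase), POLQ has 106 (1.00 per kilobase) and RIF1 has 39 (0.677 per kilobase). Among members that were not regulated, XRCC5 has 89 (0.951 per kilobase) and TP53BP1 has 59 (0.740 per kilobase). PRKDC, at 187 kb and with 159 copies the second longest locus of the 10, was not regulated. Over all named loci, the share that decreased was 22.9% for loci under 20 kb and 25.96% for those of 150 kb or more. The intronic AATAAA closest to the start of the MANE transcript is printed here for the 3 called genes, for LIG4 and, as a gene that was not regulated, for XRCC5, 5′ to 3′ on the gene's strand with the motif in capitals. In XRCC4 it lies in intron 1, 713 nt into the intron (chr5:83078309-83078354, plus strand), and in POLQ in intron 2, 1428 nt into the intron (chr3:121543273-121543318, minus strand). In LIG4 it lies in intron 2 at 423 nt (chr13:108214089-108214134, minus strand), in RIF1 in intron 3 at 3459 nt, where the window stops at the end of the intron (chr2:151414778-151414822, plus strand), and in XRCC5 in intron 1 at 640.0 nt (chr2:216110078-216110123, plus strand).
XRCC4: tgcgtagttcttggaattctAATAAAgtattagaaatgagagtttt
POLQ: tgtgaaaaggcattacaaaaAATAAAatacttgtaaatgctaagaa
LIG4: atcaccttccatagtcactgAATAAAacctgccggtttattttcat
RIF1: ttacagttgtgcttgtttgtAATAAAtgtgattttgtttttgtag
XRCC5: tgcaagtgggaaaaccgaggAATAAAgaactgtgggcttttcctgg
The motif is a description of the sequence, and whether it was used could not be read from values per locus. The distance from the start to this first copy was 782 nt in XRCC4, 2690.0 nt in POLQ and 1422 nt in LIG4. It was 4896 nt in RIF1 and 750.0 nt in XRCC5. The median was 1963.5 nt over those of the 12917 genes that have a copy.

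The table also holds loci without a symbol that lie inside members, and these were examined because they can carry reads from introns. There were 5 of them, inside XRCC5, DCLRE1C and RIF1, and 2 were expressed highly enough to be tested. With the deposited scaling neither passed both thresholds in limma, and neither had an unadjusted p under 0.05 there. In edgeR and DESeq2 neither passed both thresholds, but in limma 1 counted as decreased with equal totals and 1 with RPL34. The one inside DCLRE1C (chromosome 10, 14911609 to 14913419) was at 99.2, 117 and 118 normalized reads in DMSO and at 70.5, 94.3 and 93.3 in THZ531, a log2 fold change of -0.38 (limma adjusted p = 0.11). The one inside XRCC5 was at 23.9 ± 13.6 in DMSO and at 32.8 ± 8.84 in THZ531 (SD, n = 3), with overlapping libraries. No such locus lies inside XRCC4, POLQ or LIG4.

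Accessory factors of classical end joining included the 2 greatest decreases among the pathway genes tested, POLL and CYREN. Of 13 genes listed, 11 were tested, 6 decreased, where 23.9% of all loci did, and none of the other 5 passed both thresholds. The median log2 fold change was -0.60. POLL, a gap-filling polymerase of the X family, was at 798, 845 and 780.3 normalized reads in DMSO and at 147, 168 and 199 in THZ531. It kept 21.2% of its DMSO level, a log2 fold change of -2.24 (SE 0.118, limma adjusted p = 1.3e-10), and its libraries were far apart. CYREN, a small regulator of end joining that binds Ku, fell from 2668 ± 125 to 754 ± 39.6 (SD, n = 3; log2 fold change -1.82, limma adjusted p = 1.1e-12). POLM, the related polymerase mu, was low, at 97.6, 65.9 and 55.1 in DMSO and at 36.5, 18.2 and 26.2 in THZ531 (log2 fold change -1.41, SE 0.334, limma adjusted p = 0.0014). IFFO1, a nuclear lamina protein that binds XRCC4, was lower still, at 24.6 ± 6.32 and 11.7 ± 3.00 (SD, n = 3), and its call rests on the unadjusted p of 0.036, since the adjusted p was 0.052. PAXX, a paralog of XRCC4 and XLF, was at 778 ± 105 in DMSO and 846 ± 48.4 in THZ531 with overlapping libraries, DNTT was listed at 0, and APLF was below the minimum for testing.

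Along the 53BP1 axis, all 17 genes listed were tested, of which 5 decreased and 3 increased, with a median log2 fold change of 0.02. Since 23.9% of all loci decreased and 15.7% increased, these counts lie near the background. Of shieldin, the complex that acts below RIF1 to protect ends, SHLD2 was at 3059.7, 2852 and 2908 normalized reads in DMSO and at 1450, 1496 and 1323 in THZ531 (log2 fold change -1.05, limma adjusted p = 2.1e-10). SHLD3 shares its locus with TRAPPC13 in the deposited annotation, and this joint locus fell from 769 ± 59.3 to 290.4 ± 16.4 (SD, n = 3; log2 fold change -1.40, limma adjusted p = 2.6e-09), a value that cannot be assigned to SHLD3 alone. SHLD1 was low, at 67.5, 73.3 and 63.0 in DMSO, and rose to 105, 101.2 and 125 in THZ531 (log2 fold change 0.69, limma adjusted p = 0.0079). MAD2L2, the REV7 subunit, was at 1541 ± 64.7 and 1635 ± 66.0 (SD, n = 3) with overlapping libraries. With the deposited scaling shieldin thus had 2 subunit loci lower, 1 higher and 1 not regulated. Both decreases were called under each of the 19 alternatives, whereas the increase of SHLD1 was lost with equal totals (0.45), with RPL34 (0.20) and with a 2-fold threshold.

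Upstream of 53BP1, MDC1, the adaptor that reads phosphorylated H2AX, fell from 2661 ± 110 to 1397 ± 79.1 normalized reads (SD, n = 3; log2 fold change -0.93, limma adjusted p = 8.4e-10). RNF168, the ubiquitin ligase whose histone mark 53BP1 recognizes, was at 4901, 5409 and 5566 in DMSO and at 9151, 9663 and 9386 in THZ531, and its log2 fold change of 0.83 (limma adjusted p = 2.9e-10) was close to that of RIF1. RNF8, which acts between them, was not regulated (1486 ± 40.2 and 1731 ± 78.5; SD, n = 3). HELB, a helicase that limits resection, rose from 522 ± 46.6 to 928 ± 15.8 (SD, n = 3; log2 fold change 0.83, limma adjusted p = 2.1e-07). With RPL34 as the reference, none of SHLD1, RNF168 and HELB counted as increased. CTC1 and ASTE1, the other decreased genes of the list, were at 59.6% and 59.2% of DMSO.

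The list of alternative end joining and resection had 11 genes, all tested, of which 3 decreased and 1 increased, with a median log2 fold change of 0.08. These counts too lie near the background of 23.9% and 15.7%. RHNO1, a factor of the 9-1-1 clamp pathway that also acts with POLQ in mitosis, was at 2269, 2404 and 2438 normalized reads in DMSO and at 1057, 1108 and 1106 in THZ531 (log2 fold change -1.12, limma adjusted p = 7.2e-11). APEX2, a nuclease that trims 3′ ends, fell from 4388 ± 30.4 to 2034 ± 73.5 (SD, n = 3; log2 fold change -1.11, limma adjusted p = 8.7e-12). XRCC1, the scaffold of LIG3, fell from 1610 ± 78.0 to 934 ± 10.4 (SD, n = 3; log2 fold change -0.78, limma adjusted p = 1.3e-08). RBBP8, which encodes CtIP and starts resection, was at 3042, 3123 and 3203 in DMSO and at 4781, 4882 and 4821.5 in THZ531 (log2 fold change 0.63, limma adjusted p = 2.0e-09). Its libraries did not overlap, but its call was lost with equal totals (0.39) and with RPL34 (0.14). LIG3, RAD50, MRE11, NBN, PARP1, FEN1 and LIG1 were not regulated.

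**Figure D4:**
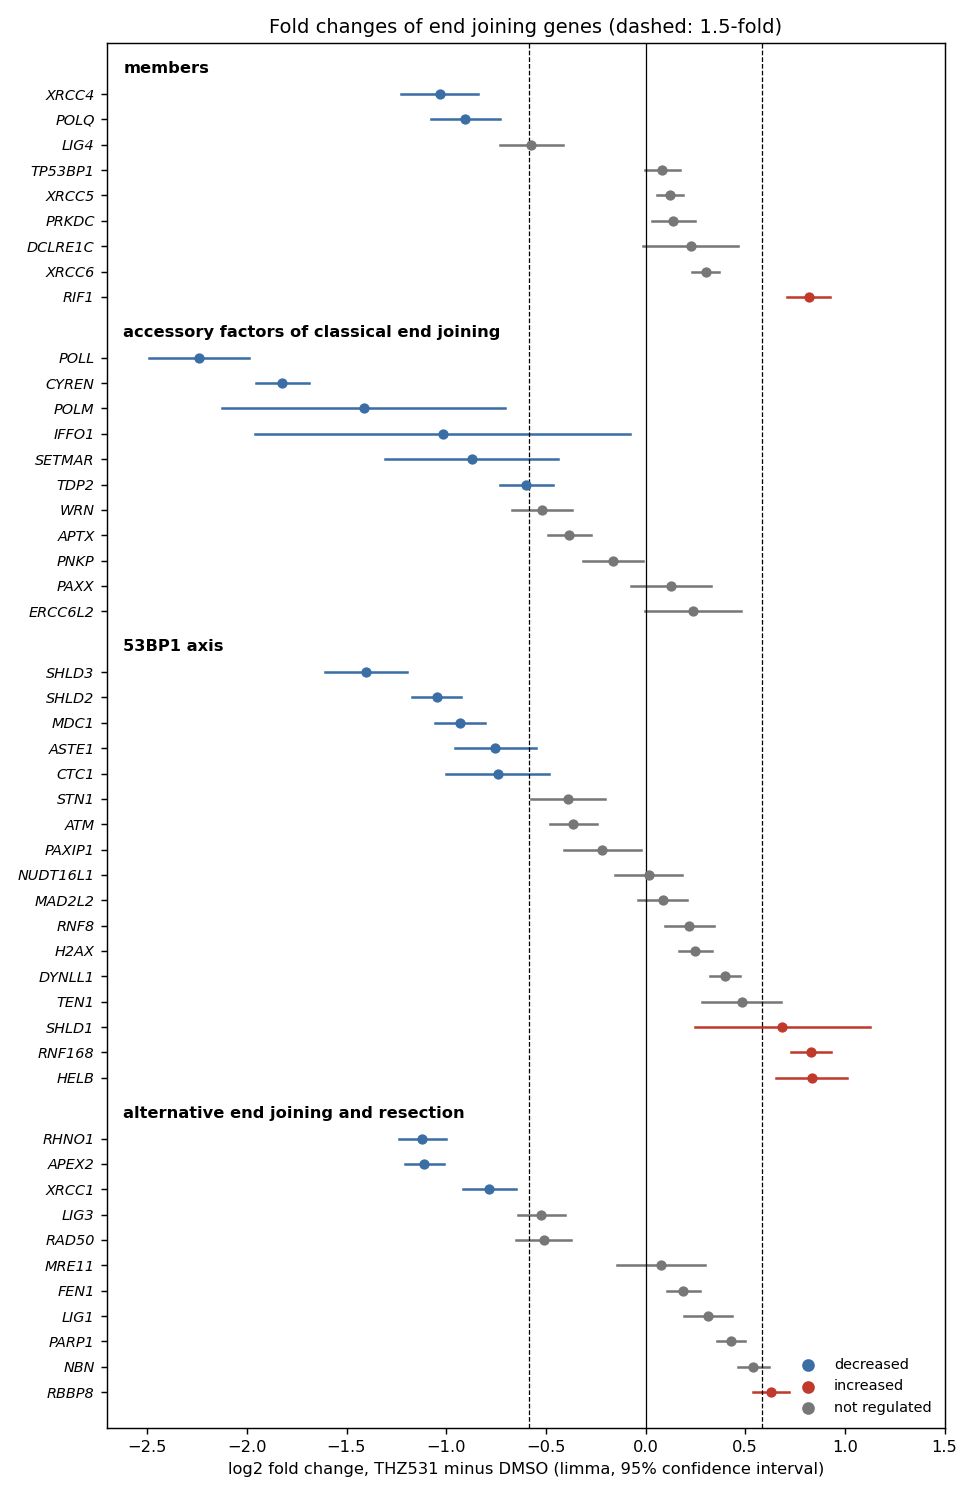
Log2 fold change (x axis, THZ531 minus DMSO, limma) with 95% confidence interval for each tested member and for the tested genes of 3 related lists, sorted within a list; colours give the call and dashed lines mark 1.5-fold. XRCC4 and POLQ lie left of the line, LIG4 lies on it and RIF1 lies right of it; POLL and CYREN are the lowest of all genes shown.

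Over the 3 lists, 39 of 41 genes were tested, 14 decreased and 4 increased under the deposited scaling, where 23.9% and 15.7% of all loci tested did. With equal totals the counts were 20 and 2, and with RPL34 22 and 0. The members gave 2 and 1 under the deposited scaling and 3 and 0 under both others, where LIG4 was added and RIF1 was lost. The 17568 loci tested gave 4197 and 2751, then 5615 and 1647, then 7524 and 1078 in the same order, so the background of decreases also rose with the other scalings.

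Homologous recombination, the route that competes with end joining, was taken for comparison. Of 12 genes listed, 11 were tested and 7 decreased, where 23.9% of all loci did, with a median log2 fold change of -0.72. None increased in limma, where 15.7% of all loci did, or in edgeR or DESeq2, and none had a positive fold change with an unadjusted p under 0.05 in limma. BRCA1 was at 672, 742 and 725 normalized reads in DMSO and at 176, 183 and 197 in THZ531 (log2 fold change -1.94, limma adjusted p = 1.5e-10). RAD52 fell from 239 ± 29.0 to 66.9 ± 8.09 and XRCC2 from 3606 ± 378 to 1051 ± 57.2 (SD, n = 3; log2 fold changes -1.82 and -1.77, limma adjusted p = 1.9e-07 and 5.6e-12). No test of the difference between the recombination genes and the end joining genes was run, so the counts of the 2 sets stand side by side.

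The loci whose profile over the 6 libraries came closest to a called member were found by the root mean square difference of log2 values, each taken relative to its own DMSO mean, over 15277 other named loci. For XRCC4 these were ZNF383, a zinc finger gene (609 and 291 normalized reads in DMSO and THZ531, distance 0.0383), and FAM72A (1240 and 619, distance 0.0554). For POLQ they were MICAL2 (5676 and 3089, distance 0.0258), which acts on actin, and THEM4 (1356 and 738, distance 0.0265). For RIF1 the closest was TTN-AS1 (381 and 671, distance 0.0188), whose reads can be told from those of TTN only by strand. None of these 5 belongs to a repair list used here.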

How the data were processed

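PolyA RNA of 6 OVCAR3 cultures was sequenced from stranded libraries. Reads were aligned by the authors on hg38 using STAR (2.7.5a in the submitters' processing notes; the methods name another version), counted them on FAST DB loci with featureCounts, and deposited DESeq2-normalized values, a signal that is not corrected for gene length. The labels and the methods name different RNA kits. In each library 100% of the deposited values came out as whole reads (tolerance 0.1 reads) after division by 1 step, so the read counts were recovered. Depth was lower in every THZ531 library (53054048 to 57953296 reads on genes) than in any DMSO library (60146046 to 70986130). Depth limits mainly the weakly expressed loci.

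A locus was tested when 3 or more libraries had values of 10 or higher (17568 loci, of which 15278 carry a symbol) on log2(value + 1) with limma 3.58.1 (trended variance, no covariates) in R 4.3.3, and p-values were adjusted over all 17568 loci by the Benjamini-Hochberg method. Fold changes are on this scale, which understates those of low genes. The thresholds are those of the study's methods. The recovered read counts were tested with DESeq2 1.42.0 and with the quasi-likelihood test of edgeR 4.0.16 as alternatives, and the scripts were tested on simulated data. Ratios between partner genes were compared by exact permutation over libraries (scipy 1.17.1), in 5 pairs, since the pair with NHEJ1 has no value. Intron positions came from the MANE transcripts of GENCODE 44 on hg38.

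The members and lists were chosen with earlier results of these data known. Named were all members, the 4 genes of each related list and the 3 recombination genes with the greatest fold change past both thresholds, and the nearest profiles of the 3 members that changed most, of which 1 is not reported here. Other genes were named after their values had been seen, to complete a list. Other alternatives were pseudocounts of 0.1 and 10, no minimum and a minimum of 50, 3 other scalings, limma without a trend, a 2-fold threshold, calls by adjusted p, the replicate number as a block, and each library left out in turn.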

Additional observations from a re-analysis of the deposited data

How the results depend on the processing

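The number of decreased members was 2, and it was 1 with a fold change of 2. With each library left out in turn it was between 2 and 3, since LIG4 passed the threshold without DMSO replicate 1 or THZ531 replicate 3. The number of increased members was 1 and became 0 with a fold change of 2, with equal totals and with RPL34. Among the other pathway genes, the decreased count of 14 became 8 with a fold change of 2 and 22 with RPL34 (12 to 14 with a library left out), and the increased count of 4 became 0, 2 and 0 with a fold change of 2, equal totals and RPL34. The decreased recombination genes went from 7 to 4 with a fold change of 2. Of all 17568 loci tested, 4197 decreased and 2751 increased, and these counts moved too. They became 2689 and 1353 with a fold change of 2, 5615 and 1647 with equal totals, and 7524 and 1078 with RPL34. Of the 2 tested loci inside members, 1 counted as decreased with equal totals and 1 with RPL34. The sign changed with RPL34 for XRCC5 (-0.37), XRCC6 (-0.19), PRKDC (-0.35), DCLRE1C (-0.27) and TP53BP1 (-0.41), and with equal totals for XRCC5 (-0.12), PRKDC (-0.10), DCLRE1C (-0.016) and TP53BP1 (-0.16). These follow from the construction of the scalings, which shift all loci by -0.49 and -0.24. Of 455 fold changes of 24 genes under the alternatives, 423 kept their sign and call. No shared deviation of same-numbered libraries was seen (correlations 0.0017, 0.019 and -0.039), which does not tell whether they were handled together. The replicate block left 2 members decreased and 1 increased. IFFO1, at 11.7 normalized reads in THZ531, was not past the threshold with the adjusted p, with DESeq2 or without DMSO replicate 2 or 3 or THZ531 replicate 1 or 2, 4 of the 6 libraries. Depth limits the calls of such low genes, and the exact permutation test of ratios cannot go below p = 0.1.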
